A study of Mus musculus with 12 samples.

Results

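Hearts of mice lacking the long noncoding RNA Nron were compared after transverse aortic constriction (TAC) with hearts of wild-type mice after sham surgery. The comparison took 8 of the 12 libraries of the series, 4 labelled TAC in NRON KO (TAC KO) and 4 labelled Sham in NRON WT (Sham WT), chosen by those labels. The other 4 libraries came from wild-type mice after TAC (TAC WT) and entered as a reference. Hearts were taken 6 weeks after surgery. Constriction narrows the aorta, so that the left ventricle must pump against a raised pressure. Sham surgery is the same operation without the narrowing. TAC KO and Sham WT differed in surgery and in genotype at once, and a sham-operated knockout was not analysed here, so the effects of surgery and genotype on this contrast cannot be told apart. The labels give neither the strain, sex or age of the mice nor how the knockout was made. Nothing in them says that each library is a different animal, and the p-values therefore reflect only the spread among these libraries, which may be technical.

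A pressure-loaded heart enlarges its muscle cells and returns to a set of genes active before birth, among them the natriuretic peptides, skeletal actin and the slow myosin heavy chain. Its fibroblasts deposit collagen and matricellular proteins, and the muscle commonly lowers genes of fatty acid oxidation and of ion channels. Calcineurin, a calcium-activated phosphatase, drives part of this response by sending NFAT transcription factors into the nucleus. NRON was named for its repression of NFAT and is known as an RNA scaffold that holds NFAT in the cytoplasm. The comparison addressed how much of the overload state was present in hearts without it.

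Totals were 28565856 to 35777820 counts in TAC KO and 27596898 to 35491024 in Sham WT. Levels are given as CPM, a count divided by the scaled size of its library in units of 1e+06 counts. Both annotated Nron records (chromosome 2, 33805816 to 33813591 and 33812957 to 33813326, GRCm38) held 0 counts in each of the 12 libraries, so Nron gave no check of the genotype labels. A record at 0 could still hold 0.082 to 0.11 CPM. Myh6, the main myosin heavy chain of adult mouse ventricle, lay between 22975 and 32219 CPM in the 8 libraries, while the atrial genes Myl7, Sln and Bmp10 stayed under the low-count filter. Of 10 atrial markers 6 were tested, and in TAC KO 3 of these rose, Nppa among them, and 1 fell. The lowered count was 2 with the trends of GC content and length removed and without Sham WT 1, TAC KO 1 or TAC WT 2, and 0 with the filter of 1 CPM in 4 libraries. The summed atrial level, most of it Nppa, was 374 to 598 CPM in Sham WT and 1058 to 1351 in TAC KO, and its part in the results was not tested.

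The TAC KO libraries stood apart from all wild-type libraries in their composition. The difference in median log2 deviation between genes in the highest and the lowest quintile of GC content was 0.104 to 0.429 in TAC KO, -0.120 to -0.0411 in Sham WT and -0.149 to -0.0613 in TAC WT. The same difference between long and short transcripts was -0.256 to -0.147 in TAC KO and -0.00215 to 0.149 in Sham WT. Each of these trends separated TAC KO from Sham WT with an exact two-sided permutation p of 0.0286, the smallest that 4 against 4 libraries allow. The trends and the knockout cannot be told apart by design. Counts of genes with the trends removed are given below for several lists, for TAC KO versus Sham WT only. List counts of the direct contrast with TAC WT were not taken with the trends removed.

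Of 15477 tested genes, 4273 (27.6%) differed between TAC KO and Sham WT at an edgeR adjusted p under 0.05. They were 1986 raised genes (12.8% of those tested) and 2287 lowered genes (14.8%). The median called change was 0.40 in log2 units, and 1172 genes (7.57%) were called at 1.5-fold or more. A log2 change of 1 or more was reached by 248 raised genes, and 199 lowered genes changed as far in the other direction. The median change of all tested genes was 0.00, and the medians of gene lists below are read against it. TAC WT differed from the same Sham WT libraries in 3051 genes (19.7%), 1496 raised (9.67%) and 1555 lowered (10%), and 1248 of the called genes (8.06% of those tested) reached 1.5-fold. The 2 comparisons share the Sham WT libraries, so the values are set side by side, and the direct contrast of TAC KO with TAC WT (5110 genes, 33%, of which 1332, or 8.61% of those tested, at 1.5-fold or more) gives the test of each difference between them.

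**Figure D1:**
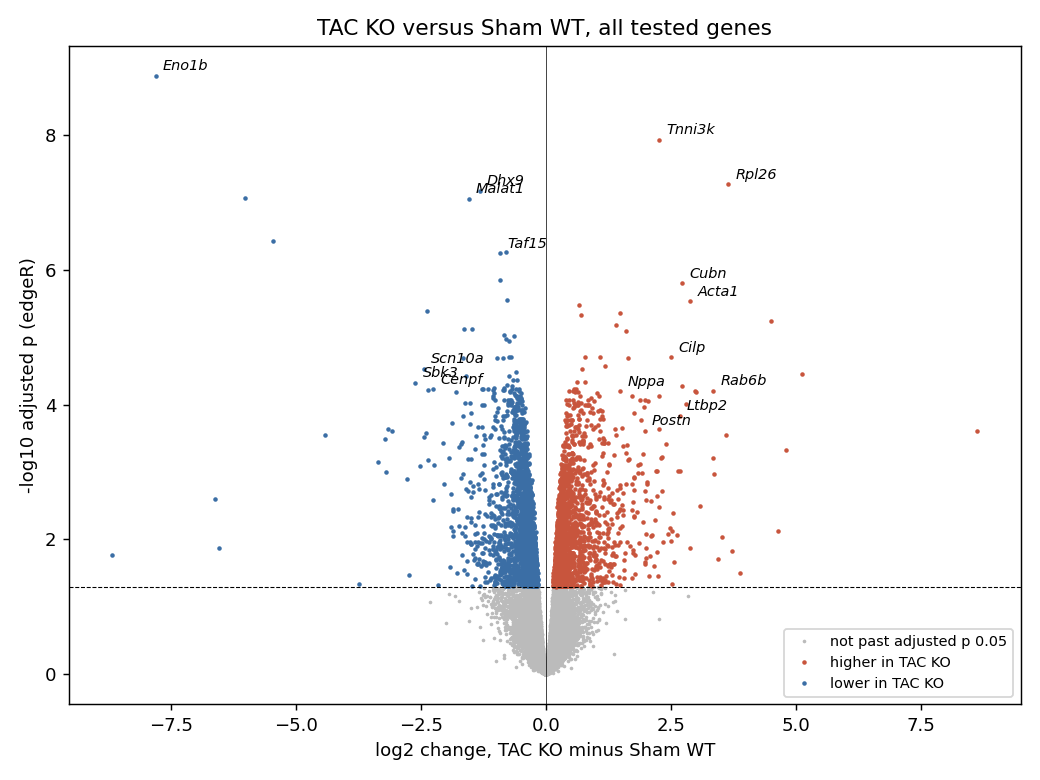
Log2 change (x axis) against -log10 of the edgeR adjusted p (y axis) for each of 15477 genes tested in TAC KO versus Sham WT. Red points are the 1986 raised genes and blue points the 2287 lowered genes, and the labels include the actin Acta1 at 2.88 and the nuclear RNA Malat1 at -1.54.

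On the first principal component, which held 29.0% of the variance, TAC KO (-11.9 to 12.8) lay between Sham WT (-28.5 to -26.1) and TAC WT (15.4 to 37.1). The second component held 25.6% and set TAC KO (26.6 to 36.4) apart from all wild-type libraries (-19.9 to -11.8).

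The 3 genes taken as markers of overload were raised in TAC KO. Acta1, the skeletal muscle actin that embryonic and loaded hearts use, measured 312, 693, 465 and 461 CPM in Sham WT, 2652, 3969, 4297 and 3326 in TAC KO and 7917, 5759, 6531 and 8830 in TAC WT. Every TAC KO library lay above every Sham WT library and below every TAC WT library. In TAC KO Acta1 rose by 2.88 on the log2 scale (SE 0.22, edgeR adjusted p = 2.95e-06), beside 3.91 in TAC WT, and the direct contrast of TAC KO with TAC WT was -1.03 (edgeR adjusted p = 0.00231). Acta1 (ENSMUSG00000031972.5) lies on chromosome 8 from 123891769 to 123894751.

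Ltbp2, a matrix protein related to the binding proteins of latent TGF-beta, measured 3.06, 3.29, 2.29 and 2.46 CPM in Sham WT and 15.2, 21.8, 24.5 and 9.88 in TAC KO. In TAC WT it measured 28.3, 13.0, 16.8 and 37.4 CPM, a range that overlapped TAC KO and not Sham WT. Its log2 change was 2.68 (SE 0.35, edgeR adjusted p = 0.000147), beside 3.10 in TAC WT, and the direct contrast of -0.42 did not pass (edgeR adjusted p = 0.31). Cilp, a matrix protein first described in cartilage and made by loaded cardiac fibroblasts, measured 13.6, 8.36, 8.69 and 8.91 CPM in Sham WT and 49.7, 80.3, 60.4 and 35.6 in TAC KO. TAC WT libraries lay at 60.9, 43.4, 52.5 and 74.6 CPM, among the TAC KO values. Cilp rose by 2.51 in TAC KO (SE 0.24, edgeR adjusted p = 2e-05), beside 2.55 in TAC WT. Ltbp2 (ENSMUSG00000002020.15) lies on chromosome 12 from 84783212 to 84876532 and Cilp (ENSMUSG00000042254.14) on chromosome 9 from 65265180 to 65280605.

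The promoters of these markers and of the stretch genes Ankrd1 and Nppb are shown because Acta1 differed between TAC KO and TAC WT, while Ltbp2 and Cilp did not pass that test. Each runs from 250 bases before to 50 bases after the start given by RefSeq on GRCm38.p6, 5′ to 3′ on the gene's strand. Capitals mark the MCAT motif, CATTCC on either strand (GGAATG when it lies on the reverse strand), which TEAD factors bind in muscle genes. Acta1 is from chr8:123894726-123895025 (minus strand), Ankrd1 from chr19:36119795-36120094 (minus), Nppb from chr4:147985650-147985949 (plus), Cilp from chr9:65264930-65265229 (plus) and Ltbp2 from chr12:84876442-84876741 (minus).
Acta1: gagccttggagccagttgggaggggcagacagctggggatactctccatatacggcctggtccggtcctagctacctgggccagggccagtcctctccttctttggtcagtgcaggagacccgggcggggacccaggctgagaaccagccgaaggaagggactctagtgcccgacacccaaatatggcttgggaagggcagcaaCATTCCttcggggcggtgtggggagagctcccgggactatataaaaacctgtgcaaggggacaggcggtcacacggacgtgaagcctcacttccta
Ankrd1: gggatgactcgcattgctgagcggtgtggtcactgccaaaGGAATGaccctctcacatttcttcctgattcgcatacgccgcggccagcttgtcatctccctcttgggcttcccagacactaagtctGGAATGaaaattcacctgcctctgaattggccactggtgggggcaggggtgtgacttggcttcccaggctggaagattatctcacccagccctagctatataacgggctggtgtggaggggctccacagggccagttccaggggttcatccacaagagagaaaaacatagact
Nppb: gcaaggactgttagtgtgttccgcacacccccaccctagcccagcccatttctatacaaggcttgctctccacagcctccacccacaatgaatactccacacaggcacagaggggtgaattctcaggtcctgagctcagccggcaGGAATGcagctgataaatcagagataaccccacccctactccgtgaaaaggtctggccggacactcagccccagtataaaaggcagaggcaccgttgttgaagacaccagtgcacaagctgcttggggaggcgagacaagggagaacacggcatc
Cilp: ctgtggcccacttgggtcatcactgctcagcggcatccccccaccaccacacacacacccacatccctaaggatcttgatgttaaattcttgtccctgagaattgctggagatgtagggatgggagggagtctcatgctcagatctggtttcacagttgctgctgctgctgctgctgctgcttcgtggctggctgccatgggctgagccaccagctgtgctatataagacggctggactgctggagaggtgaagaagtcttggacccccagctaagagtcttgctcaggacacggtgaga
Ltbp2: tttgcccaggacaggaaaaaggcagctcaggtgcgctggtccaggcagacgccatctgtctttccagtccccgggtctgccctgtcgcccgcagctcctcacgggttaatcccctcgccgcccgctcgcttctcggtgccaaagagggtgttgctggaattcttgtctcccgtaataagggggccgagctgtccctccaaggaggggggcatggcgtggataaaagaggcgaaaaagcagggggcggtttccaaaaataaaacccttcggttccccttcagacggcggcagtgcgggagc
Acta1 held 1 match at -46 from the start, Ankrd1 held 2 at -210 and -123, and Nppb held 1 at -105. The windows of Cilp and Ltbp2 held none. Of all 32851 promoter windows of this length, 4817 (14.7%) held the motif. At least 1 window of 6 of the 17 fetal and stretch genes with a RefSeq window held it (35.3%), beside 16.6% of all genes. Most of that list thus held none, and Ankrd1 and Nppb were picked for display and do not stand for it. A match is a description of the letters and was not tested as a binding site. Its relation to the difference from TAC WT was not tested.

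The fetal and stretch genes were raised in TAC KO, and most stood lower than in TAC WT. Of 18 tested members, 14 rose, none fell and the median log2 change was 0.68. In TAC WT 17 rose and the median was 1.87. Against TAC WT, 14 of the 18 were lower in TAC KO by the direct test, where 17.3% of all tested genes were. With GC and length trends removed, 14 members rose from Sham WT as well.

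Nppa, which encodes atrial natriuretic peptide, measured 323, 535, 375 and 362 CPM in Sham WT, 1138, 1065, 1281 and 985 in TAC KO and 3468, 2820, 3485 and 4782 in TAC WT. The 3 groups did not overlap, and TAC KO lay nearest to Sham WT. It rose by 1.49 in TAC KO (SE 0.17, edgeR adjusted p = 6.38e-05), beside 3.19 in TAC WT, and the direct contrast was -1.70 (edgeR adjusted p = 1.96e-05). Nppb, the brain natriuretic peptide gene, measured 161, 331, 297 and 358 CPM in Sham WT and 381, 1080, 912 and 839 in TAC KO. The first TAC KO library was close to the highest Sham WT library and the other 3 were well above it. Nppb rose by 1.49 (SE 0.28, edgeR adjusted p = 0.00159), beside 2.64 in TAC WT.

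Myh7, the slow myosin heavy chain, measured 337, 307, 323 and 400 CPM in Sham WT, 445, 1100, 1205 and 911 in TAC KO and 2763, 2031, 1017 and 3250 in TAC WT. Its rise of 1.42 in TAC KO was smaller than the 2.73 of TAC WT by the direct contrast (-1.31, edgeR adjusted p = 0.00611). The fast chain Myh6 fell by 0.34 in TAC KO (edgeR adjusted p = 0.00599) and by 0.30 in TAC WT. The 2 genes are neighbours of high sequence identity, and the counting could split their shared reads.

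Ankrd1, a titin-associated stretch sensor, measured 857, 1766, 1244 and 1434 CPM in Sham WT, 2004, 3401, 3513 and 2826 in TAC KO and 6326 to 9937 in TAC WT. The groups did not overlap, and the log2 change of 1.15 (SE 0.21, edgeR adjusted p = 0.00155) stood beside 2.55 in TAC WT. The actin-binding Xirp2 rose by 0.80 and the Z-disc protein Csrp3 by 0.52 (edgeR adjusted p = 0.00275 and 0.00312), beside 1.88 and 0.84. The related ankyrin repeat gene Ankrd2 measured 0.183 to 0.514 CPM in Sham WT and 0.687, 1.83, 7.13 and 3.52 in TAC KO, which is a rise of 3.44 (SE 0.99, edgeR adjusted p = 0.0193). That call was lost without Sham WT 2, Sham WT 4 or TAC KO 3, with edgeR adjusted p-values of 0.0523 to 0.0599.

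A few members of the list did not pass in TAC KO. Nmrk2, a muscle kinase of NAD synthesis, measured 5.96 to 7.88 CPM in Sham WT, 9.62, 14.0, 21.5 and 14.9 in TAC KO and 29.1 to 136 in TAC WT. TAC KO lay above Sham WT without overlap, yet the log2 difference of 1.06 missed the threshold (edgeR adjusted p = 0.052), while TAC WT showed 3.24. It passed when the compared groups were fitted alone, with no low-count filter, with upper-quartile scaling and without TAC KO 1, TAC WT 2 or TAC WT 4 (edgeR adjusted p = 0.00199 to 0.0481). Fhl1, a LIM protein of the titin complex, differed by 0.51 in TAC KO (edgeR adjusted p = 0.193) and rose by 1.86 in TAC WT.

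**Figure D2:**
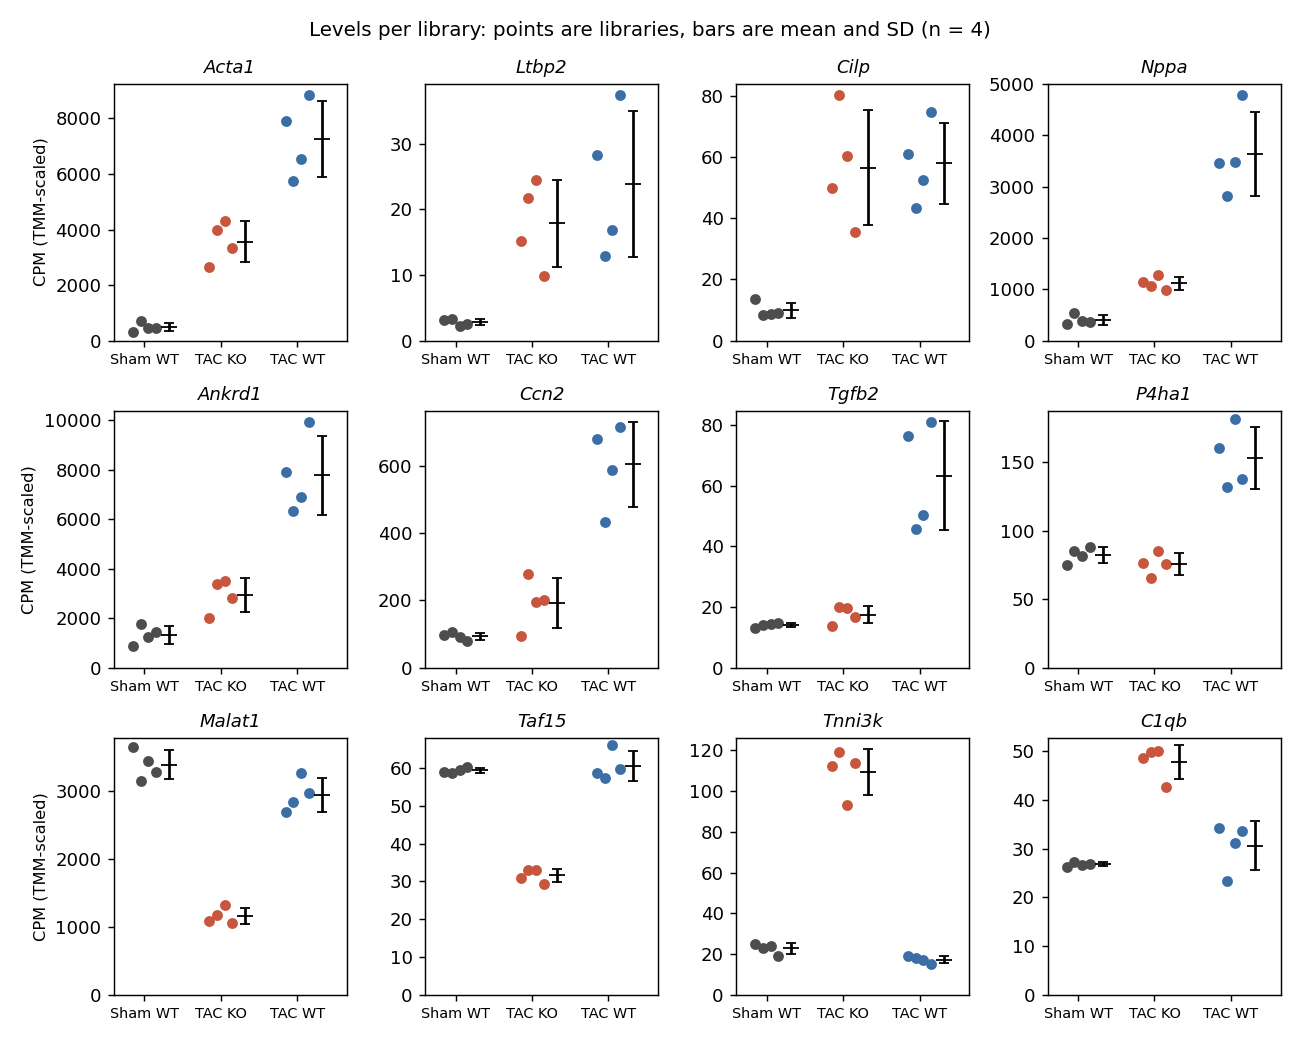
Scaled CPM (y axis, linear from 0) of 12 genes in each library of Sham WT, TAC KO and TAC WT, with points for libraries and bars for the mean and SD of 4. Nppa and Ankrd1 lie between the groups in TAC KO, Cilp lies at the TAC WT level, Tgfb2 and P4ha1 overlap Sham WT, and Malat1, Taf15, Tnni3k and C1qb set TAC KO apart from both wild-type groups.

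Calcineurin and NFAT genes changed in both directions. Of 25 tested members, 3 rose, 7 fell and 15 did not pass, with a median of -0.12, where 12.8% of all tested genes rose and 14.8% fell. Rcan1, a calcineurin regulator whose own transcription answers NFAT, measured 107, 138, 112 and 115 CPM in Sham WT, 133, 305, 448 and 316 in TAC KO and 386 to 740 in TAC WT. The first TAC KO library lay within the Sham WT range and the other 3 above it. Rcan1 rose by 1.35 (SE 0.28, edgeR adjusted p = 0.00298), beside 2.39 in TAC WT, and the direct contrast was -1.03 (edgeR adjusted p = 0.0107).

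Among the lowered members were the transcription factors Mef2a, Mef2c and Nfat5. Mef2a, a muscle transcription factor, measured 187 to 198 CPM in Sham WT and 116 to 127 in TAC KO, a fall by 0.64 (SE 0.06, edgeR adjusted p = 9.58e-06), beside a fall by 0.42 in TAC WT. Nfat5, the member of the family that answers osmotic stress and not calcineurin, fell by 0.53 and Mef2c by 0.34. Neither passed in the same direction in TAC WT, where Mef2c rose by 0.18. With GC and length trends removed Mef2c no longer passed (-0.09, edgeR adjusted p = 0.331). Of 12 tested protein partners of NRON, 3 were lowered and none was raised. Of all tested genes 14.8% fell and 12.8% rose. The median of the partners was -0.07, and the nuclear pore protein Ranbp2 fell by 0.44 (edgeR adjusted p = 0.000585). With the trends removed 2 partners were lowered and 2 raised, and 1 was raised without Sham WT 1 or TAC KO 1. By the direct test 7 partners were lower in TAC KO than in TAC WT and 1 was higher. Of all tested genes 17.3% were lower and 15.7% higher by that test.

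Matrix genes were raised in TAC KO, where 12.8% of all tested genes rose. Of 18 tested collagens, 15 rose and none fell, with a median of 0.63, beside 13 raised and a median of 0.68 in TAC WT. Of 33 matricellular and microfibril genes, 22 rose and 1 fell (median 0.76), beside 22 raised and 2 lowered in TAC WT (median 0.73). The direct contrast with TAC WT called 1 collagen higher and 1 lower in TAC KO, and 2 and 3 of the matricellular genes. With GC and length trends removed, 14 collagens and 22 matricellular genes rose. The raised counts were lowest without Sham WT 3, at 10 collagens and 17 matricellular genes. With no low-count filter they were 16 and 24.

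Col3a1, the fibrillar type III collagen, measured 249.7, 205, 186 and 215 CPM in Sham WT and 414, 561, 517 and 371 in TAC KO. All TAC KO libraries lay above Sham WT, and TAC WT at 283 to 468 CPM overlapped TAC KO. It rose by 1.12 (SE 0.17, edgeR adjusted p = 0.000372), beside 0.78 in TAC WT. The type I chains Col1a1 and Col1a2 rose by 0.79 and 0.82, and Col12a1, which decorates fibrils, rose by 1.25. Col8a1, a short-chain collagen, rose by 1.01 and was the lowered collagen of the direct contrast (-0.74, edgeR adjusted p = 0.015).

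Postn, periostin of activated fibroblasts, measured 31.8 to 39.4 CPM in Sham WT, 88.1, 191, 163 and 109 in TAC KO and 237, 108, 146 and 278 in TAC WT. It rose by 1.98 in TAC KO (SE 0.28, edgeR adjusted p = 0.000245), beside 2.46. The thrombospondin Thbs4 rose by 2.26, the microfibril protein Mfap4 by 1.91, the proteoglycan Bgn by 0.99 and Fmod, a collagen-binding proteoglycan of low count, by 2.51. In TAC WT these 4 rose by 2.45, 2.0, 1.17 and 2.43, and no direct contrast passed. Ltbp1, the main binding protein of latent TGF-beta, was lower in both, by -0.39 in TAC KO and -0.56 in TAC WT.

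Ccn2, connective tissue growth factor, was an exception among matrix genes. It measured 95.8, 107, 91.0 and 79.9 CPM in Sham WT, 95, 279, 196 and 199.99 in TAC KO and 679, 433, 588 and 716 in TAC WT. The first TAC KO library lay inside the Sham WT range. The rise of 1.04 in TAC KO (SE 0.24, edgeR adjusted p = 0.00592) was smaller than the 2.69 of TAC WT (direct contrast -1.65, edgeR adjusted p = 0.000293). Its relative Ccn5, which lacks the C-terminal domain of the family, rose by 1.85 in TAC KO, beside 1.16.

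Of 27 cross-linking and turnover genes, 12 rose and 2 fell in TAC KO (median 0.59), and 20 rose in TAC WT (median 0.61). Removal of the GC and length trends left 11 raised and none lowered. The cross-linking oxidase Loxl1 rose by 0.72, the procollagen processing enhancer Pcolce by 0.66 and the secreted ADAMTS-like protein Adamtsl2 by 1.63. Timp1, an inhibitor of matrix metalloproteases, measured 2.06 to 3.51 CPM in Sham WT and 5.74, 6.33, 47.7 and 19.1 in TAC KO, with libraries 3 and 4 far above the others. Its log2 change of 2.88 (SE 0.77, edgeR adjusted p = 0.0136) was 1.96 without TAC KO 3 and no longer passed (edgeR adjusted p = 0.0518). P4ha1, a subunit of the enzyme that hydroxylates collagen prolines, measured 74.7, 84.9, 81.6 and 88.5 CPM in Sham WT, 76.6, 65.4, 85.2 and 75.5 in TAC KO and 132 to 182 in TAC WT. TAC KO overlapped Sham WT (-0.12, edgeR adjusted p = 0.394), and the direct contrast with TAC WT was -1.02 (edgeR adjusted p = 2.28e-05).

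Among 23 tested TGF-beta ligands and receptors, 2 rose and 6 fell in TAC KO (median -0.03), beside 8 raised and 2 lowered in TAC WT. Of all tested genes 12.8% rose and 14.8% fell in TAC KO. The raised count was 4 with GC and length trends removed, with no low-count filter, with the compared groups alone and without TAC KO 1. Tgfb2, a ligand of the family, measured 13.1, 13.9, 14.5 and 14.7 CPM in Sham WT, 13.8, 20, 19.6 and 16.7 in TAC KO and 76.4, 45.7, 50.3 and 81.2 in TAC WT. The TAC KO difference of 0.32 did not pass (edgeR adjusted p = 0.181) and the direct contrast with TAC WT was -1.85 (edgeR adjusted p = 1.29e-05). In a fit of the compared groups alone a difference of 0.33 passed (edgeR adjusted p = 0.0431). Gdf15, a stress-induced hormone of the family, rose by 2.02, from 0.535 to 1.55 CPM in Sham WT to 2.06 to 6.59 in TAC KO, beside 3.53. The inhibitory Smad7 fell by 0.49 and the ligand Gdf11 by 0.83 in TAC KO.

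Some ion channel genes were lowered in TAC KO. Of 27 potassium and sodium channel genes, 11 fell, 3 rose and 13 did not pass, with a median of -0.30. Of all tested genes 14.8% fell and 12.8% rose. In TAC WT 18 of the 27 were lowered and 1 was raised (median -0.54). The lowered count in TAC KO ran from 8 without Sham WT 1 or Sham WT 2 to 13 with the compared groups alone. Scn10a, a sodium channel subunit of neurons and the conduction system, measured 4.64, 3.61, 4.86 and 3.37 CPM in Sham WT, 0.653, 0.932, 0.656 and 0.802 in TAC KO and 0.437 to 1.11 in TAC WT. Both TAC groups lay below every Sham WT library, and Scn10a fell by 2.43 in TAC KO (SE 0.24, edgeR adjusted p = 2.96e-05). The inward rectifiers Kcnj2, Kcnj3 and Kcnj5 fell by 1.11, 0.83 and 0.79, beside falls by 0.81, 1.33 and 0.89.

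Kcnh2, which carries the rapid delayed rectifier current, measured 101, 90.7, 89.3 and 84.5 CPM in Sham WT, 109.9, 60.5, 73.6 and 74.5 in TAC KO and 31.7 to 63.7 in TAC WT. Its first TAC KO library was above Sham WT and the other 3 below, and the difference of -0.20 did not pass (edgeR adjusted p = 0.464). The direct contrast with TAC WT was 0.83 (edgeR adjusted p = 0.00521). Kcnv2, a silent potassium channel subunit, also overlapped Sham WT, at -0.33 in TAC KO (edgeR adjusted p = 0.314) and -1.41 in TAC WT. Kcne1, an accessory subunit of the slow delayed rectifier, rose by 1.24 in TAC KO and did not pass in TAC WT (-0.52).

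Genes of contraction and calcium cycling included 2 raised and 8 lowered among 25 tested in TAC KO. Of all tested genes 12.8% rose and 14.8% fell. In this list 11 were lowered with the compared groups alone, and 3 were raised and 6 lowered with the trends removed. The lowered count was 5 with upper-quartile scaling and without Sham WT 1, Sham WT 3, Sham WT 4, TAC KO 1, TAC KO 2 or TAC KO 3, and the raised count was 4 without Sham WT 1. Trdn, which anchors the calcium store protein at the ryanodine receptor, measured 436 to 491 CPM in Sham WT and 254, 309, 304 and 313 in TAC KO, a fall by 0.67 (SE 0.07, edgeR adjusted p = 5.95e-05). TAC WT at 421 to 477 CPM overlapped Sham WT, and the direct contrast was -0.58 (edgeR adjusted p = 0.000116). The calcium channel subunit Cacna2d1 fell by 0.45 and the calcium-binding Hrc by 0.50, and S100a1, a calcium sensor of muscle, rose by 0.53. With the trends removed Cacna2d1 differed by -0.19 (edgeR adjusted p = 0.0317). Atp2a2, the calcium pump of the sarcoplasmic reticulum, differed by -0.19 and its inhibitor Pln by -0.20 (edgeR adjusted p = 0.26 and 0.113), where TAC WT fell by 0.51 and 0.47. Both passed in a fit of the compared groups alone (edgeR adjusted p = 0.0429 and 0.0326).

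Few fatty acid genes passed the test in TAC KO. Of 31 tested, 3 rose and 2 fell, with a median of 0.00, beside 25 lowered and none raised in TAC WT (median -0.36). By the direct test 24 of the 31 were higher in TAC KO than in TAC WT, where 15.7% of all tested genes were. With GC and length trends removed the counts from Sham WT were 5 raised and 6 lowered.

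Acaa2, the last thiolase of the mitochondrial spiral, measured 822, 870.4, 776 and 789 CPM in Sham WT, 735, 748, 729.7 and 816 in TAC KO and 466 to 570.3 in TAC WT. TAC KO overlapped Sham WT and lay above every TAC WT library. The difference from Sham WT was -0.11 (edgeR adjusted p = 0.329), and it passed with GC and length trends removed (-0.24, edgeR adjusted p = 0.035). The isomerase Ech1 differed by -0.16 (edgeR adjusted p = 0.108), and by -0.32 with the trends removed (edgeR adjusted p = 0.00764).

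The genes of the list that fell in TAC KO were Lpl, the lipase that frees fatty acids at the vessel wall, and the transporter Slc27a1. Lpl measured 5052 to 6424 CPM in Sham WT, 3517 to 4136 in TAC KO and 3720 to 4812 in TAC WT, and it fell by 0.59 in TAC KO (edgeR adjusted p = 0.000504). Slc27a1 fell by 0.37, beside 0.87 in TAC WT (direct contrast 0.50, edgeR adjusted p = 0.000312). The binding protein Fabp3 rose by 0.34 and the isomerase Eci2 by 0.26. The coactivator Ppargc1a, which drives mitochondrial genes, fell by 0.65 in TAC KO and by 0.43 in TAC WT.

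Of 44 nuclear genes of oxidative phosphorylation, 4 rose and 1 fell in TAC KO (median 0.06), beside 16 lowered in TAC WT (median -0.17). By the direct test 30 were higher in TAC KO than in TAC WT, where 15.7% of all tested genes were. The count raised from Sham WT depended on the libraries and settings. It ran from 0 without Sham WT 3 or Sham WT 4 to 8 with the compared groups alone. It was 1 without Sham WT 2 or TAC KO 4 and 7 without TAC WT 3, and the lowered count ran from 0 to 3 over the alternatives. With the trends removed 2 rose and 3 fell. Mitochondrially encoded genes took 19.6% ± 1.28 of counts in TAC KO and 21.5% ± 0.910 in Sham WT (SD, n = 4), a difference of -1.88 percentage points (exact two-sided permutation p = 0.0857). Among glucose and ketone genes 6 of 28 rose and 2 fell, a called share near the 27.6% of all tested genes. The raised count was 3 without Sham WT 4. Pfkfb1, a regulator of glycolysis, fell by 1.49 in TAC KO and by 2.19 in TAC WT, and Eno1, the general enolase, rose by 0.44 in TAC KO.

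**Figure D3:**
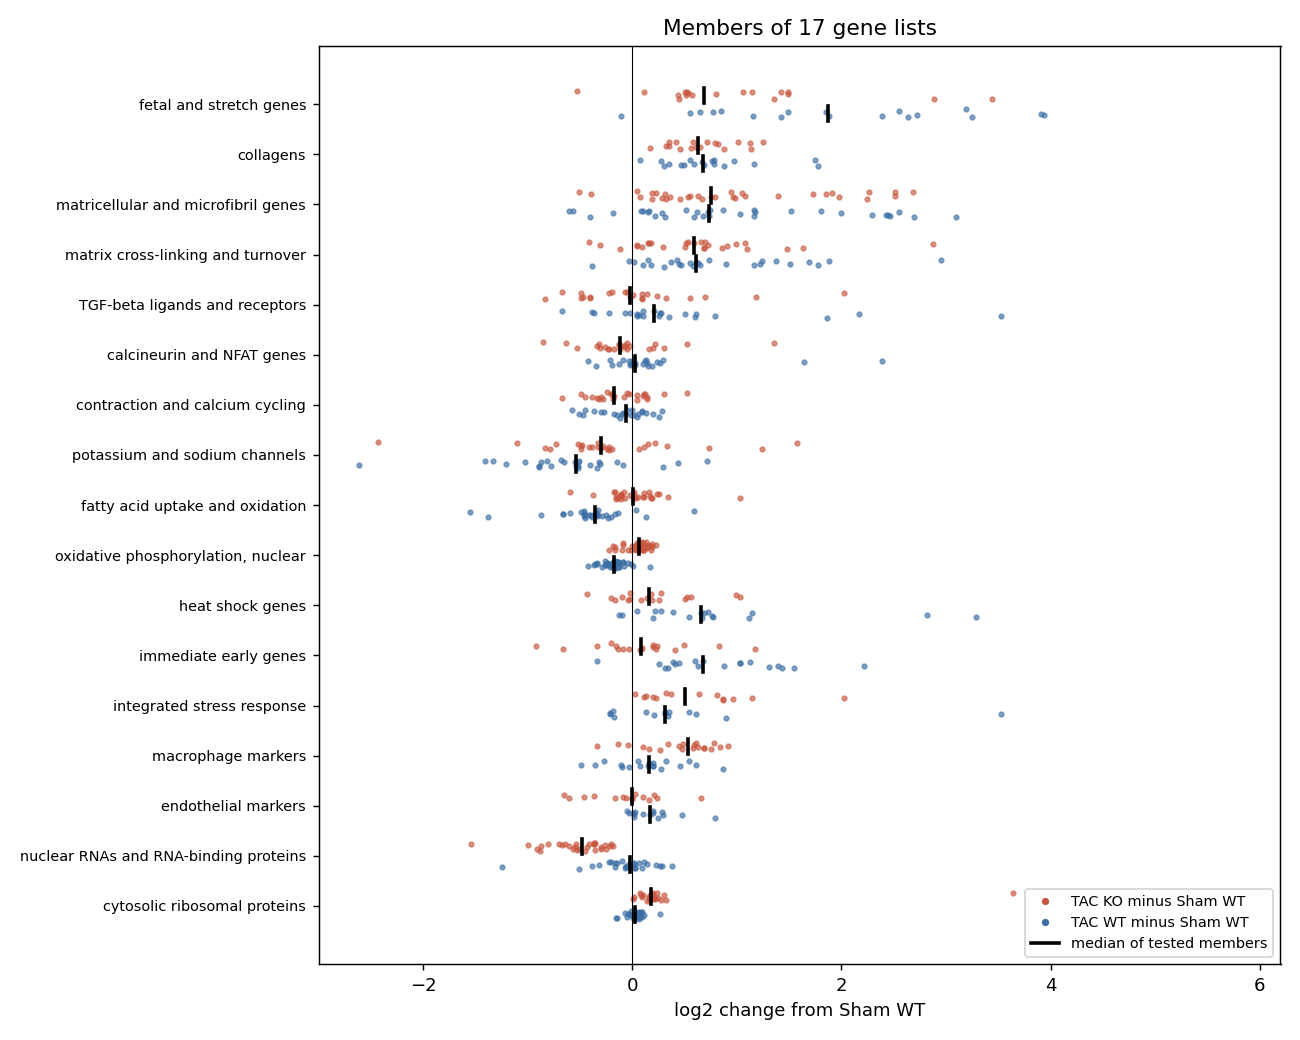
Log2 change from Sham WT (x axis) of each tested member of 17 gene lists (y axis), red for TAC KO and blue for TAC WT, with a black bar at each median. The bars nearly coincide for collagens (0.63 and 0.68), lie apart for fetal and stretch genes (0.68 and 1.87), and stand at 0.00 and -0.36 for fatty acid genes and at -0.49 and -0.02 for nuclear RNAs and RNA-binding proteins.

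Of 18 heat shock genes 4 rose and 1 fell in TAC KO (median 0.16), a called share near the 27.6% of all tested genes, beside 14 raised in TAC WT (median 0.66). Of 19 immediate early genes 2 rose in TAC KO, a share near the 12.8% of all tested genes, beside 11 in TAC WT. The single lowered heat shock gene did not pass with RLE or upper-quartile scaling, without any 1 of Sham WT 1, Sham WT 2, Sham WT 4 or the 4 TAC KO libraries, or without TAC WT 1. Hspa1a, an inducible chaperone with a near-identical copy, measured 1.84, 2.78, 1.49 and 3.04 CPM in Sham WT, 1.96, 4.82, 6.90 and 4.75 in TAC KO and 11.7 to 39.4 in TAC WT. The difference of 1.03 did not pass (edgeR adjusted p = 0.0761), beside a rise of 3.28. It passed without TAC KO 1 (edgeR adjusted p = 0.0288), without TAC WT 3, with no low-count filter and with the compared groups alone.

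Atf3, an early stress transcription factor, rose by 1.17 in TAC KO (edgeR adjusted p = 0.00437), beside 2.21. Myc rose by 0.83 and lost its call with the trends removed and without Sham WT 1, Sham WT 3, Sham WT 4 or TAC KO 3, so that 1 immediate early gene remained called in each of these. Among 14 genes of the integrated stress response, which slows translation and induces amino acid synthesis, 9 rose and none fell in TAC KO (median 0.50), beside 4 raised and 1 lowered in TAC WT. With the trends removed 6 rose. Mthfd2, of mitochondrial folate metabolism, rose by 1.14, the translation inhibitor Eif4ebp1 by 0.86, the serine synthesis enzyme Phgdh by 0.86 and asparagine synthetase Asns by 0.63. Eif4ebp1 measured 33.5 to 38.5 CPM in Sham WT, 59.5 to 75.0 in TAC KO and 36.7 to 54.7 in TAC WT, and its direct contrast was 0.55 (edgeR adjusted p = 0.00154).

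Nuclear RNAs and genes of RNA-binding proteins were lowered in TAC KO. Like the other lists, this one was chosen with earlier results of these data known. Its counts are a description and no evidence for a direction. Of 30 tested, 24 fell and none rose, with a median of -0.49, beside 4 lowered in TAC WT (median -0.02). By the direct test 22 were lower than in TAC WT, where 17.3% of all tested genes were. With GC and length trends removed 19 fell from Sham WT (median -0.35). Malat1, a nuclear long noncoding RNA (ENSMUSG00000092341.2, chromosome 19, 5795690 to 5802672), measured 3658, 3159, 3456 and 3294 CPM in Sham WT, 1095, 1178, 1329 and 1053 in TAC KO and 2693 to 3273 in TAC WT. Every TAC KO library lay below every wild-type library, and Malat1 fell by 1.54 (SE 0.09, edgeR adjusted p = 8.82e-08). Neat1, the RNA that builds paraspeckles, fell by 0.65.

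Taf15, a nuclear RNA-binding protein, measured 58.8 to 60.2 CPM in Sham WT, 31.0, 33.0, 33.0 and 29.4 in TAC KO and 57.2 to 66.1 in TAC WT. Taf15 fell by 0.91 (SE 0.06, edgeR adjusted p = 5.72e-07). The splicing factors Hnrnpa2b1 and Rbm25 fell by 0.71 and 0.68. Dhx9, an RNA helicase, measured 62.1 to 63.7 CPM in Sham WT and 22.6 to 27.6 in TAC KO, a fall by 1.32 (SE 0.07, edgeR adjusted p = 6.71e-08). Protein-coding genes made up 86.7% of lowered genes, 95.2% of raised genes and 87.0% of all tested genes. Of 1092 tested long noncoding RNAs 162 fell, a share near the 14.8% of all tested genes. Another 65 rose, a share below the 12.8% of all tested genes. Among 28 cytosolic ribosomal protein genes 11 rose and none fell (median 0.18). That count was 5 with the trends removed, 19 with the compared groups alone, 7 with no low-count filter or without Sham WT 3, TAC KO 3 or TAC KO 4, and 6 without Sham WT 4.

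Macrophage markers were higher in TAC KO. Of 20 tested, 13 rose and 1 fell, with a median of 0.53, beside 1 raised in TAC WT (median 0.16). By the direct test 7 were higher in TAC KO than in TAC WT and 13 did not pass. Their summed level was 270.0 to 329 CPM in Sham WT, 357 to 470.3 in TAC KO and 256 to 364 in TAC WT. With the trends removed 10 rose from Sham WT (median 0.44). The count raised from Sham WT was 7 without Sham WT 1 and 8 without Sham WT 2, Sham WT 3 or TAC KO 3. The lowered gene did not pass with the trends removed or without Sham WT 3, Sham WT 4, TAC KO 1 or TAC KO 4. In these bulk heart samples more cells of a type and more RNA per cell cannot be told apart, nor can fewer cells and less RNA. The complement gene C1qb measured 26.3, 27.2, 26.6 and 26.9 CPM in Sham WT, 48.6, 49.9, 50 and 42.6 in TAC KO and 23.5 to 34.3 in TAC WT. TAC KO lay above both wild-type groups, and C1qb rose by 0.84 (SE 0.10, edgeR adjusted p = 8.68e-05), C1qc by 0.69, C1qa by 0.61 and the lysosomal Cd68 by 0.58. Of 10 tested lymphocyte and granulocyte markers none passed in edgeR or DESeq2, and 1 had an unadjusted p under 0.05. The compared groups alone gave 2 lowered ones, and no low-count filter or the fit without TAC WT 3 or TAC WT 4 gave 1.

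Among 15 endothelial markers 4 fell and 1 rose in TAC KO, where 14.8% of all tested genes fell and 12.8% rose. Kdr, the main VEGF receptor, measured 284, 347, 373 and 402 CPM in Sham WT, 196, 222, 232 and 243 in TAC KO and 297 to 403 in TAC WT. It fell by 0.65 (SE 0.11, edgeR adjusted p = 0.00106), and Efnb2, Flt1 and Tek fell by 0.60, 0.46 and 0.36. The raised member, Plvap, did not pass with the trends removed (0.48, edgeR adjusted p = 0.0556), and 2 members were raised without TAC KO 2 or TAC KO 4. The summed endothelial level was 2145 to 2482 CPM in Sham WT and 1900.4 to 2262 in TAC KO, ranges that overlapped.

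Fibroblast markers included 7 raised and 2 lowered genes among 15, and the raised count was 4 without Sham WT 3. With the trends removed 5 were raised and 1 lowered. Their summed level was 1546 to 1795 CPM in Sham WT and 1932 to 2269 in TAC KO, and its part in the rise of matrix genes was not tested. Mgp, an inhibitor of calcification, rose by 0.78 and the secreted Pi16 by 0.65, beside 0.92 and 0.68 in TAC WT. Wt1, a gene of the epicardium, fell by 0.77. Smooth muscle and pericyte markers numbered 14, of which 6 were raised, 2 were lowered and 6 did not pass. Of all tested genes 12.8% rose and 14.8% fell. The lowered count was 0 without Sham WT 3 or Sham WT 4, and 1 with the trends removed, with upper-quartile scaling and without Sham WT 1, Sham WT 2, TAC KO 1, TAC KO 3 or TAC KO 4. Among the raised members, the contractile genes Cnn1 and Tagln rose by 1.24 and 0.72 and vitronectin, Vtn, by 0.61. None of these 3 passed in TAC WT, and they do not stand for the list. Among 20 proliferation markers only Cenpf passed, and it fell. With no low-count filter or the compared groups alone 1 of them also rose.

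**Figure D4:**
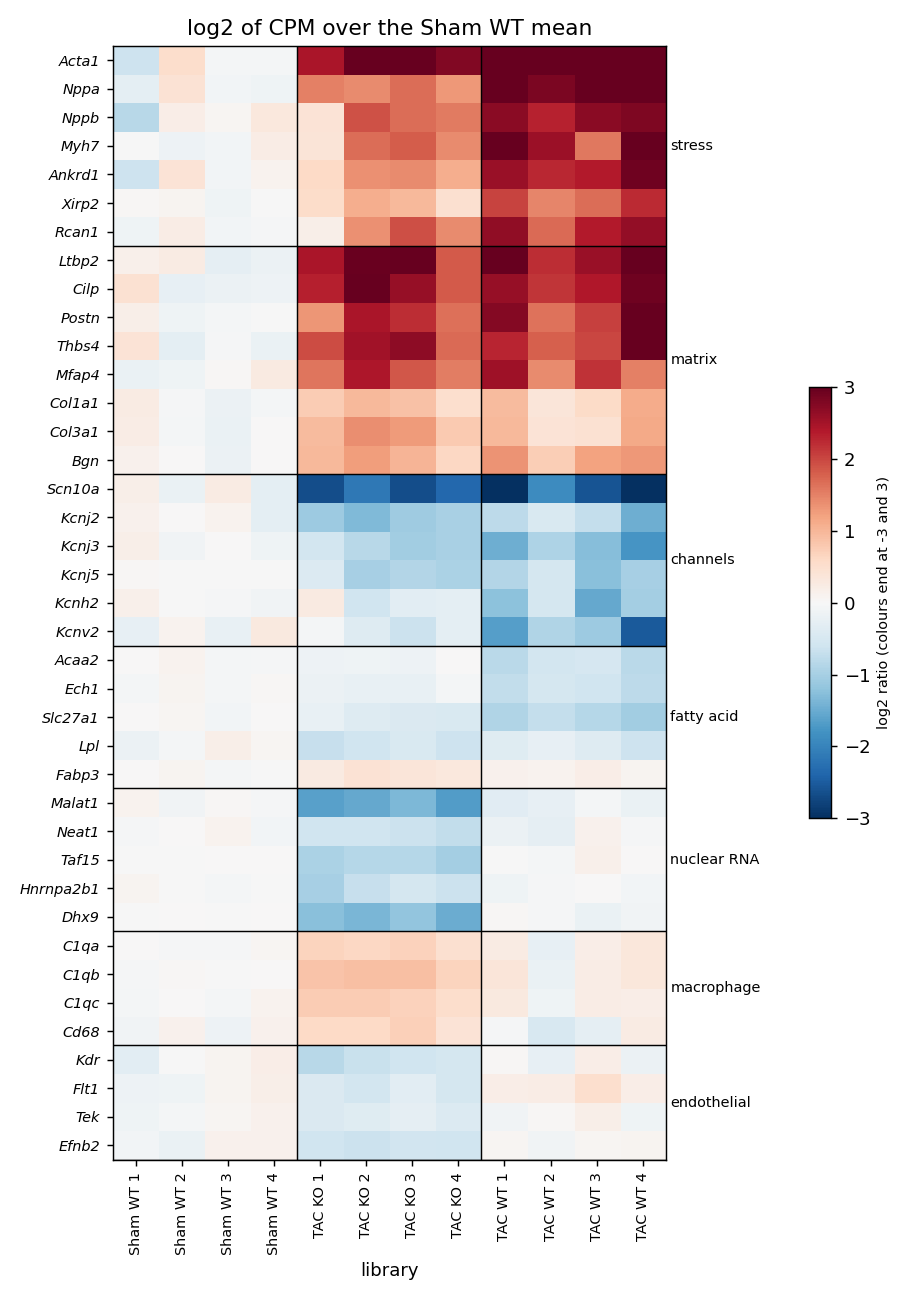
Log2 of CPM over the Sham WT mean (colour, ending at -3 and 3) for 39 genes in 7 sets (rows) and 12 libraries (columns). Matrix genes are red in both TAC groups, stress genes are paler in TAC KO than in TAC WT, and the nuclear RNA genes are blue in the 4 TAC KO libraries and near white in TAC WT.

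The genes with the highest changes in TAC KO, by the naming rule, included secreted and transport proteins besides the markers. Cpxm2, a secreted carboxypeptidase-like protein, measured 3.95, 12.6, 14.7 and 12 CPM in Sham WT and 63.5, 94.0, 62.2 and 66.6 in TAC KO. It rose by 2.73 and stood above TAC WT by the direct contrast (0.90, edgeR adjusted p = 0.0195). Cubn, an endocytic receptor of kidney and gut, measured 0.716 to 0.981 CPM in Sham WT, 5.18 to 6.56 in TAC KO and 0.929 to 2.06 in TAC WT, a rise of 2.72 (SE 0.20, edgeR adjusted p = 1.59e-06). The metallothionein Mt2 rose by 2.69, the iron-carrier protein Lcn2 by 2.45 and the cholesterol transporter Star by 2.49. TAC KO 3 was the highest TAC KO library for Mt2 (157 CPM), Lcn2 (48.3 CPM) and Star (13.7 CPM).

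Among the genes that the naming rule allows (a mean of at least 1 CPM, no overlap between groups and no clone-type symbol), the lowest changes after Eno1b were those of Sbk3, Scn10a, Cntn2 and Cenpf. Sbk3, a kinase of the heart muscle, measured 5.73 to 9.74 CPM in Sham WT, 1.03 to 1.52 in TAC KO and 0.738 to 2.19 in TAC WT, a fall by 2.61 in TAC KO and by 2.6 in TAC WT. Cntn2, an adhesion protein found in the conduction system, fell by 2.36, beside 2.25. Cenpf, a kinetochore protein, measured 37.0, 28.0, 51.3 and 42.7 CPM in Sham WT, 7.90, 6.91, 6.30 and 12.3 in TAC KO and 4.75 to 10.3 in TAC WT. Both TAC groups lay below Sham WT for all 3 genes. Aqp4, a water channel, fell by 1.66, beside 2.22, and the lipid-moving ABC transporter Abca4 by 1.66, beside 1.23.

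Some genes passed in TAC KO against both wild-type groups and not between them. Rpl26, a protein of the large ribosomal subunit, measured 5.56, 7.59, 6.46 and 6.38 CPM in Sham WT, 87.6, 93.2, 93.7 and 50.7 in TAC KO and 5.14 to 7.61 in TAC WT. Its log2 change was 3.64 (SE 0.19, edgeR adjusted p = 5.44e-08), and since Rpl26 has near-identical copies in the genome, the value is uncertain. The GTPase gene Rab6b rose by 3.34 and Igfals, which binds the IGF complex in serum, by 2.27. Eno1b, a copy of Eno1 on chromosome 18 from 48045335 to 48048412, held 559 counts over the Sham WT libraries and 2 over TAC KO, a ratio of 278 (95% counting interval 76.7 to 2303). Reads of Eno1 and Eno1b could be split by the counting, and Eno1 rose in TAC KO.

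Tnni3k, a heart muscle kinase (ENSMUSG00000040086.13, chromosome 3, 154786291 to 155055407), measured 24.9, 23.1, 24.1 and 19.1 CPM in Sham WT, 112, 119, 92.9 and 113 in TAC KO and 15 to 19.2 in TAC WT. It rose by 2.26 in TAC KO (SE 0.10, edgeR adjusted p = 1.19e-08) and fell by 0.40 in TAC WT. All TAC KO libraries lay above every wild-type library, so the sign of the change from Sham WT differed between the 2 TAC groups, and the direct contrast was 2.66 (edgeR adjusted p = 1.6e-09).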

How the data were processed

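Polyadenylated RNA of 12 mouse heart libraries was sequenced, 4 in each of TAC KO, Sham WT and TAC WT, from 250 ng of RNA with a directional kit, per the labels' protocols. The deposited values were raw whole-number counts per gene, 1 file per library with 54146 gene records, and the authors applied no normalization to these counts as far as the values show. The submitters' processing notes name bcl2fastq, STAR, MultiQC 1.7, featureCounts 1.6.4, DESeq2, FastQC 0.11.8, StringTie 1.3.5 and Trim Galore 0.5.0, and the build GRCm38. What each tool did, which annotation was counted and whether the counting used strand is not given in the sources used here, so reads of overlapping genes may be shared. Identifiers were matched without their version to the GENCODE mouse annotation, which named 54079 records and left 67 without a symbol, and 24118 records held 0 counts in every library.

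All 12 libraries entered 1 fit in R 4.3.3 with edgeR 4.0.16 (quasi-likelihood F-test, TMM scaling, filterByExpr over the 3 groups), which tested 15477 genes with a common biological coefficient of variation of 0.113. A gene was called at a Benjamini-Hochberg adjusted p under 0.05 over all tested genes. Every log2 value is a difference between groups from this fit, and CPM are levels, counts divided by the TMM-scaled sum over tested genes in units of 1e+06. "Trends removed" means splines with 5 degrees of freedom on GC content and transcript length, fitted in each library and entered as offsets. Upper limits for 0 use 3 counts, ratio intervals are exact at 95%, and both cover counting error only, since the reads carry no molecular identifiers.

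The markers, gene lists and naming rule were chosen with earlier results of these data known. The rule took the 15 highest and 15 lowest called genes whose groups did not overlap, leaving out clone-type symbols and genes under a mean of 1 CPM. It added up to 5 members of each of 34 lists by smallest p, 8 genes each way changed in both TAC groups, 8 each way changed in TAC KO alone, and a set of stress and matrix genes. It allowed 201 genes, of which part are named, and some members are not reported here. The genes named outside it, chosen after their values were seen, are Xirp2, Csrp3, Nmrk2, Fhl1, Col12a1, Col8a1, Thbs4, Fmod, Ccn5, Ltbp1, P4ha1, Smad7, Pln, Kcne1, Kcnh2, Kcnv2, Acaa2, Ech1, Hspa1a, Neat1, Rbm25, Alox12, Rgs18, Itgb3, Ppbp and Pf4. Alternatives were DESeq2 1.42.0, RLE or upper-quartile factors, no filter on low counts, 1 CPM in 4 libraries, the compared groups alone, trends removed, no mitochondrial genes, a 1.5-fold minimum and each library left out. The test code was tested on simulated data. Promoter sequences are those of RefSeq, GRCm38.p6.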

Additional observations from a re-analysis of the deposited data

Results flagged for a closer look

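Within groups of 4 libraries, 14 of 246 sets of values held 1 library farther from its nearest neighbour than Dixon's 95% limit allows, which chance does in about 1 in 20. Sham WT 1 stood apart in 5 genes: high for Cilp (13.6 CPM) and Pln (5958 CPM), and low for Cpxm2 (3.95 CPM), Star (0.833 CPM) and Igfals (0.892 CPM). TAC KO 4 was low for Mgp (112 CPM), Rpl26 (50.7 CPM), Tubb1 (0.573 CPM) and F5 (0.658 CPM). In TAC KO, library 2 was high for Cpxm2 (94.0 CPM) and library 1 was low for Trdn (254 CPM). Sham WT 4 was high for Col12a1 (1.72 CPM) and had the lowest total of its group (27596898 counts). The GC trend of TAC KO 1 (0.429) was above that of the other TAC KO libraries, the highest of which was 0.125.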

How the results depend on the processing

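The number of genes called in TAC KO versus Sham WT stayed within 1.5 times of 4273 under every alternative but the 1.5-fold minimum. That minimum left 1172 genes (536 raised, 636 lowered), 1248 in TAC WT versus Sham WT (634 and 614) and 1332 in TAC KO versus TAC WT (588 and 744). Leaving out 1 library at a time gave 3070 to 4480 called genes in TAC KO versus Sham WT, and the mitochondrial share differed by -2.32 to -1.32 percentage points. Of 118 genes examined one by one, 102 kept their direction and their side of the threshold under each alternative that tested them, among them 98 of the 106 that passed. The platelet gene Pf4, which did not pass, turned from 0.03 to -0.0424 with the trends removed and to -0.0172 without TAC KO 3 (0.105 without TAC KO 4), and the cause was not tested. In the lists described as having no raised or no lowered member, DESeq2 called none in that direction either. An unadjusted p under 0.05 was found for 1 lowered fetal and stretch gene and for 1 lowered immediate early gene. It was also found for 1 lowered lymphocyte or granulocyte marker and for 1 raised proliferation marker. The fetal and stretch list and the immediate early list each held 1 lowered gene with no low-count filter, and the immediate early list also without TAC KO 4. No paired analysis was possible because the labels carry no replicate numbers. Depth limits genes near 1 CPM such as Ankrd2 and Fmod, and 4 libraries per group limit every test.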

Other observations

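Some genes of platelets were lower in TAC KO than in Sham WT. In a list of platelet genes chosen after their values were seen, which is a description and no evidence for a direction, 7 of 14 tested members fell, 7 did not pass and none rose (median -1.16). Tubb1, the tubulin of platelets, measured 6.10, 6.01, 3.69 and 3.92 CPM in Sham WT, 2.10, 1.80, 2.0 and 0.573 in TAC KO and 3.20, 2.25, 2.75 and 6.98 in TAC WT. TAC KO lay below Sham WT without overlap, and Tubb1 fell by 1.62 (edgeR adjusted p = 0.00645). The integrin Itgb3 fell by 1.14, the lipoxygenase Alox12 by 0.85 and the signalling regulator Rgs18 by 1.32, and Rgs18 did not pass with the trends removed (edgeR adjusted p = 0.0527). The chemokine Ppbp fell by 1.20 and lost its call without Sham WT 2 or TAC KO 4 (edgeR adjusted p = 0.076 and 0.056). The list count was 4 without either of these libraries and 11 with no low-count filter or without TAC WT 4. Pf4, platelet factor 4, did not follow them, at 13.3 to 15 CPM in Sham WT and 12.2 to 15.7 in TAC KO (0.03, edgeR adjusted p = 0.928). The 7 tested red cell genes held 0 called in edgeR and in DESeq2, and 0 at an unadjusted p under 0.05. F5, a coagulation factor that platelets also carry, fell by 1.5.

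Of 25 tested cytokines and chemokines 4 rose and 3 fell in TAC KO, a called share near the 27.6% of all tested genes, and the lowered count was 5 without TAC KO 1. The stromal chemokine Cxcl12 measured 319.8 to 436 CPM in Sham WT and 225 to 293 in TAC KO and fell by 0.57 (edgeR adjusted p = 0.00218), and the alarmin Il33 rose by 0.87. Of 23 interferon-stimulated genes 2 fell and 1 rose, a called share below that of all tested genes. Ifit2 fell by 0.54, and Ifi44 fell by 0.70 and lost its call with the trends removed or without Sham WT 4, which left 1 lowered gene. The raised member did not pass with the trends removed or without Sham WT 3, Sham WT 4 or TAC KO 3.

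A few genes had counts in some groups only. Ccdc7a held 209 counts over the Sham WT libraries, 156 over TAC WT and 0 over TAC KO. Pooled over the group, that is at least 69.4-fold lower against a limit of 3 counts. The Sham WT libraries were uneven, from 0.0857 CPM, which is 3 counts in Sham WT 3, to 3.49 CPM, so the pooled fold does not describe each library. The long noncoding RNA E330017L17Rik held 196 counts over TAC KO and 0 over Sham WT and TAC WT, at least 65.6-fold higher than Sham WT. Called genes that changed by 2-fold or more made up 2.89% of all tested genes. The share was 4.80% of the 937 tested genes on chromosome 4, close to 4.36% on chromosome 3, 4.23% on chromosome 9 and 4.09% on chromosome 6. It was 1.39% on chromosome 17 and 1.23% on chromosome 18. Outside the lists, the exchange factor gene Arhgef19 rose by 1.40 in TAC KO, and Mill2, related to MHC class I, fell by 1.21, and neither passed in TAC WT.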
